A study of Mus musculus with 6 samples.

Results

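Collagens, laminins, nidogens and a small set of proteins that bind to them were examined in dendritic epidermal T cells (DETC) of mice with 1 or both alleles of the aryl hydrocarbon receptor gene knocked out. The genes were chosen by name. They were all genes of the array whose symbols mark them as collagen chains, laminin chains or nidogens, plus Sparc, Sparcl1, Fn1, Hspg2, Agrn, Vtn, Tnc, Fbln1, Fbln2 and Dcn. This gave 67 of the 20300 genes tested, each with 1 probe set. The name of 1 of them, Col4a3bp, was matched by its spelling only. It encodes a ceramide transporter (current symbol Cert1) and is no collagen, which left 66 matrix genes.

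DETC are γδ T cells that settle in the epidermis before birth and lie among the basal keratinocytes, just above the sheet that separates epidermis from dermis. This basement membrane is built from laminin trimers and a net of type IV collagen, which nidogens and heparan sulfate proteoglycans tie together, while fibrillar collagens fill the dermis below it. Keratinocytes and dermal fibroblasts are known as its main sources in skin, and T cells meet these proteins mostly through integrins.

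The arrays asked what the aryl hydrocarbon receptor (Ahr), a ligand-activated transcription factor, does in DETC. RNA of the sorted cells was hybridized to 6 Clariom S Mouse arrays. The Ahr-het group held 3 samples from mice of the B6.129-Ahrtm1Bra/J line with 1 knockout allele, and the Ahr-ko group held 3 samples from littermates with both alleles knocked out. The controls thus also carried a knockout allele, and no wildtype mice were included. All mice were 2 weeks old, female and male, and the sex of each pool is not given. Epidermal cells came from back and belly skin, were stained for the γδ T cell receptor and its Vγ3 chain, and were sorted to 90 to 98% purity. Each sample held the RNA of 2 to 3 mice, and 10 ng went into each labelling reaction. The share of DETC among live cells of the epidermis was 10 to 15% in Ahr-het and only 2 to 4% in Ahr-ko mice. The allele is carried in the germ line and was thus present in all other cells of the skin as well.

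All levels below are the deposited log2 values, in which a step of 1 is a doubling, and differences are Ahr-ko minus Ahr-het. They were tested with limma, with p-values adjusted over all 20300 genes and a threshold of 0.05. Genes for 1391 smell and pheromone receptors, which T cells are not known to use, served as background, and their 95th percentile on an array was taken as its background limit. The limit lay between 7.46 and 7.63, and a gene counts as above it in a group only where it passed on all 3 arrays. All 11 T cell genes tested, among them Cd3e and Itgae, were above the limit on every array, and their summed level was 16.57 to 16.71 in Ahr-het and 16.55 to 16.67 in Ahr-ko. Of these, Ptprc, the CD45 gene, rose (difference 0.47, adjusted p = 0.0437 by limma) and 0 fell. Ahr itself was at 10.77, 10.62 and 10.72 in Ahr-het and at 10.00, 10.40 and 10.39 in Ahr-ko (difference -0.44, adjusted p = 0.177 by limma). The place of its probes relative to the deleted part is not given in the sources used here, so this value does not check the labels. Precision is limited by the small number of arrays. The p-values set the difference between the genotypes against the spread among pools with the same genotype.

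Of the 67 genes, 5 passed the test, against 3.14% of all genes tested. Nid2, Sparc, Col27a1 and Lamc1 fell in Ahr-ko DETC, and Lama3 rose. Lower genes made up 5.97% of the members and 1.57% of all genes. The members were chosen with earlier results of these data known, and without Nid2 and Sparc 2 of the other 65 were lower. Higher genes made up 1.49% of the members and 1.58% of all genes, which is the level of the array as a whole. The remaining 62 members did not pass. The median difference was -0.002 over the members and 0.004 over all genes.

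Nid2 (gene ID 18074, chromosome 14) encodes nidogen-2, which links laminin to type IV collagen. Its level was 11.67, 11.74 and 11.80 on the Ahr-het arrays and 8.35, 9.04 and 8.23 on the Ahr-ko arrays. The groups lay far apart, with Ahr-het arrays close to each other, Ahr-ko 2 highest within its group, and all 6 values above the background limit. Nid2 fell 9.15-fold (difference -3.19 ± 0.20, SE, 95% interval -3.66 to -2.73, adjusted p = 8.1e-05 by limma). Counted from the strongest decrease, it was gene 12 of 20300.

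The other nidogen, Nid1 (18073), was measured at 6.85, 7.07 and 6.82 in Ahr-het and at 6.83, 6.78 and 6.58 in Ahr-ko. All of these values were below the limit and the groups overlapped (difference -0.18, adjusted p = 0.608 by limma). The decrease among the nidogens was therefore measured in Nid2, while Nid1 allows no reading of its level. In chromosome order the tested genes next to Nid2 are Gm5458, a gene known only by a model number, and Rtraf, which acts in RNA transport. Gm5458 fell as well (difference -3.09, adjusted p = 1.13e-05 by limma), and Rtraf had -0.11 (adjusted p = 0.719). Whether the probes of Nid2 and Gm5458 can bind each other's transcripts was not tested.

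Sparc (20692, chromosome 11) encodes a secreted glycoprotein that binds collagen and takes part in its deposition. It was at 12.03, 11.07 and 11.26 in Ahr-het and at 7.85, 7.55 and 7.70 in Ahr-ko. No value of one group came near the other, Ahr-het 1 was the highest array, and in Ahr-ko the gene was at the background limit, with 2 of 3 arrays above it. Sparc fell (difference -3.75 ± 0.23, SE, 95% interval -4.29 to -3.22, adjusted p = 7.34e-05 by limma), by 13.5-fold between the measured levels. As the Ahr-ko level was at the limit, the difference, its interval and this fold hold for the measured values only. Its relative Sparcl1 was below the limit on all arrays (5.75, 6.02 and 5.53 against 5.91, 5.56 and 5.98, difference 0.05). In RNA of sorted cells, fewer cells with a transcript and less RNA per cell cannot be told apart.

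Col27a1 (373864, chromosome 4) encodes a fibrillar collagen chain best known from cartilage. The Ahr-het arrays gave 10.99, 10.48 and 10.63, and the Ahr-ko arrays 8.62, 8.34 and 8.60. All values were above the limit and the groups did not overlap. Col27a1 fell 4.53-fold (difference -2.18 ± 0.15, SE, 95% interval -2.53 to -1.83, adjusted p = 0.000144 by limma). Its neighbours on the chromosome, Kif12 and Orm1, had differences of 0.05 and -0.44 and did not pass.

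**Figure D1:**
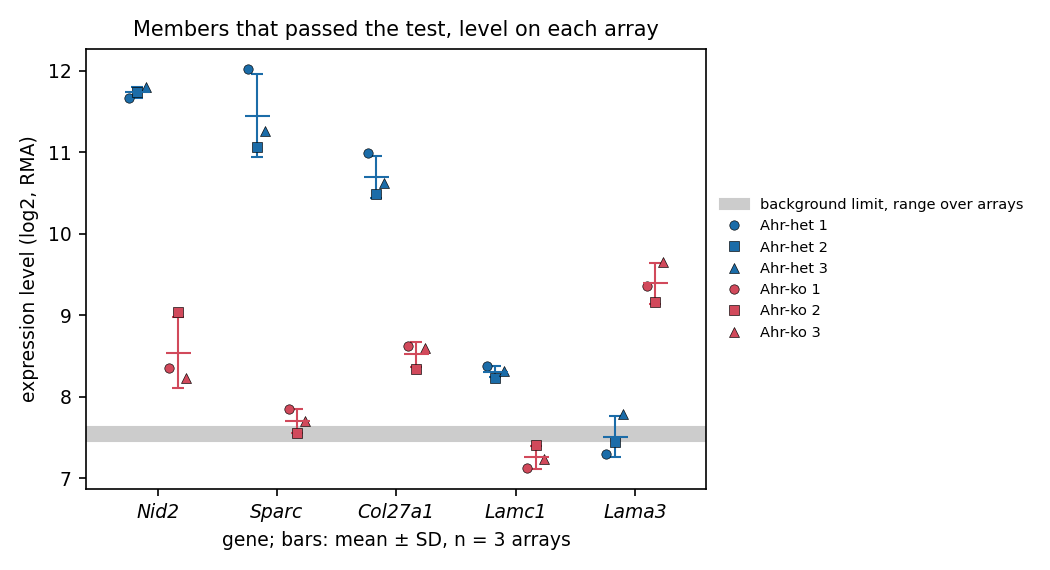
Level of the 5 members that passed the test on each array (log2, y axis), by gene (x axis). Points are single arrays, bars give the mean ± SD of 3 arrays, and the grey band is the range of the background limit over the 6 arrays. Nid2, Sparc, Col27a1 and Lamc1 are lower on every Ahr-ko array, Lama3 is higher on every one, and Lamc1 in Ahr-ko lies below the band.

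The promoters of Sparc and Col27a1, both strongly lower in Ahr-ko DETC, are shown with that of Col5a3, a fibrillar chain that did not pass (difference -0.14, adjusted p = 0.857 by limma), because Ahr binds DNA at a short core motif. Each run holds the 250 bases before the annotated start in RefSeq (GRCm38.p6), 5′ to 3′ on the strand of the gene. Capitals mark the core motif GCGTG, or CACGC for the same motif on the other strand. Sparc is at chr11:55420081-55420330 on the minus strand, Col27a1 at chr4:63215162-63215411 on the plus strand and Col5a3 at chr9:20815068-20815317 on the minus strand.
Sparc: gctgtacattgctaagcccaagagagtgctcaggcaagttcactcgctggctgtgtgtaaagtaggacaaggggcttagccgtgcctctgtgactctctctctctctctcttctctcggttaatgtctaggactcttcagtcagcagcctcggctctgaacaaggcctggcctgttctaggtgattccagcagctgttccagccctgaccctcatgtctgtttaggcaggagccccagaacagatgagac
Col27a1: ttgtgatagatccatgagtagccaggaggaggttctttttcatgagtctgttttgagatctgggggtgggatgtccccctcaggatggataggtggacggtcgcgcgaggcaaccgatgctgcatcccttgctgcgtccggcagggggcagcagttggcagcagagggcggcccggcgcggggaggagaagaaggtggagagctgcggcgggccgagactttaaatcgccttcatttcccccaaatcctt
Col5a3: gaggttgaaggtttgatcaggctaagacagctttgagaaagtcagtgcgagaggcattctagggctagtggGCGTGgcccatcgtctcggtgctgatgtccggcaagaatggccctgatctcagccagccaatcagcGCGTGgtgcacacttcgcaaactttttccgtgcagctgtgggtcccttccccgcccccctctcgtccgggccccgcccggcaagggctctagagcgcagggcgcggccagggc
The motif was found 2 times in Col5a3 and 0 times in Sparc and Col27a1. Col5a3 does not stand for the other fibrillar chains that did not pass. Of those with a window, Col11a2 held the motif 1 time and Col1a2, Col3a1, Col5a1, Col11a1 and Col24a1 held it 0 times. Windows of Nid2, Lamc1 and Lama3 were not analysed here. The RefSeq table holds 55 windows for 48 of the members, some with several starts. Of these windows 14 held the motif (25.5%), against 28.2% of all 32851 windows. No match says only that these letters are not in this window. A match is a description and no evidence of binding.

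Laminins are trimers of an α, a β and a γ chain. Among the 11 chains measured, Lamc1 fell, Lama3 rose and the other 9 did not pass. Lamc1 (226519, chromosome 1) encodes the γ chain shared by most laminins of the body, which also carries the binding site for nidogen. Its level was 8.38, 8.23 and 8.31 in Ahr-het and 7.13, 7.40 and 7.23 in Ahr-ko. It was above the limit on all Ahr-het arrays and below it on all Ahr-ko arrays, so that only a bound can be given. Lamc1 was at least 1.65-fold lower in Ahr-ko, which sets the Ahr-het mean against the mean background limit of the Ahr-ko arrays (measured difference -1.05 ± 0.11, SE, adjusted p = 0.00144 by limma).

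Lama3 (16774, chromosome 18) encodes the α chain of the laminin that anchors keratinocytes to the basement membrane. It was at 7.29, 7.45 and 7.79 in Ahr-het and at 9.36, 9.16 and 9.65 in Ahr-ko. Every Ahr-ko array was well above the limit and above every Ahr-het array, of which 1 of 3 passed the limit. Lama3 rose (difference 1.88 ± 0.17, SE, 95% interval 1.49 to 2.27, adjusted p = 0.000589 by limma), by 3.68-fold between the measured levels. The Ahr-het level was at the limit, so here too the size holds for the measured values only. The genes next to it, Ankrd29 and Ttc39c, had differences of 0.29 and 0.20 and did not pass.

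In skin the product of Lama3 is joined by the β chain encoded by Lamb3. That gene was below the limit everywhere, with 6.37 to 6.81 in Ahr-het and 6.19 to 6.60 in Ahr-ko, and its groups overlapped (difference -0.08, adjusted p = 0.9 by limma).

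Of the other chains, the α chain gene Lama5 (difference 0.05) and the γ chain gene Lamc3 (-0.09) were above the limit in both groups. Lama1, another α chain, passed the limit on 1 of 3 arrays in each group. Lama2, Lama4, Lamb1, Lamb2 (-0.22) and Lamb3 were below it on all arrays, so that no β chain was above background in either group. Lamb1 is the only member on chromosome 12, where Ahr lies (mean level 4.86 in Ahr-het and 4.79 in Ahr-ko).

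**Figure D2:**
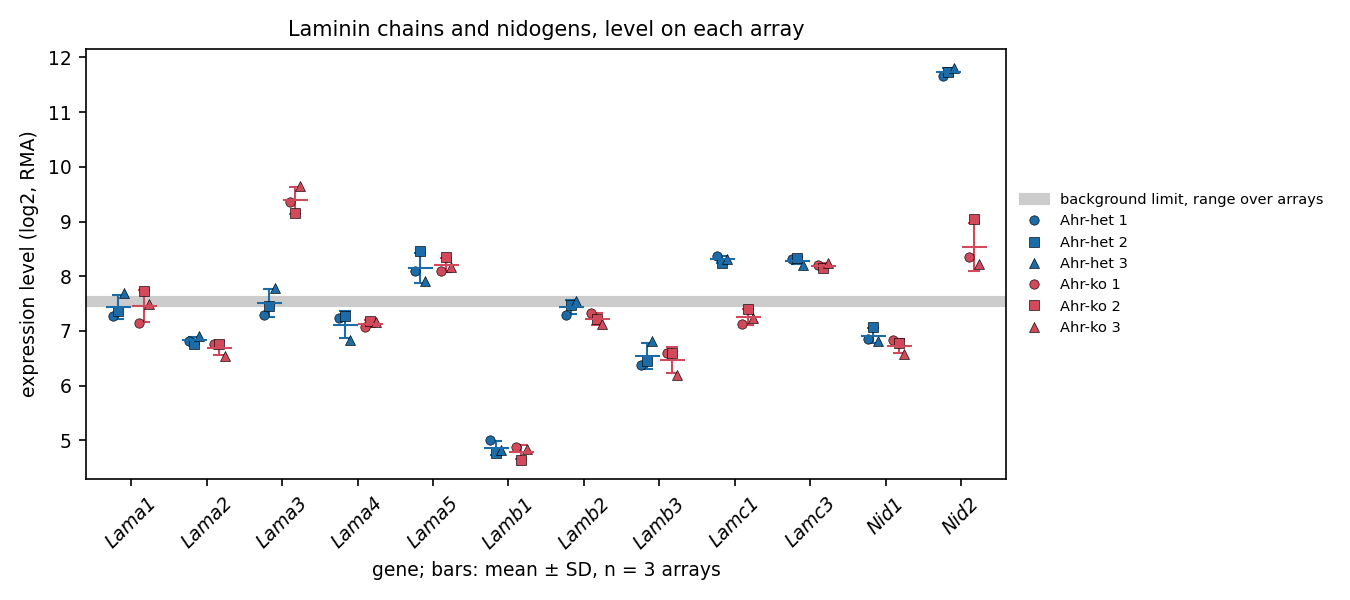
Level of laminin chains and both nidogens on each array (log2, y axis), by gene (x axis). Points are single arrays, bars the mean ± SD of 3 arrays, and the grey band the range of the background limit. Lamc1 and Nid2 are lower and Lama3 is higher in Ahr-ko, Lamc3 and Lama5 lie above the band in both groups with overlapping points, and Lamb1 lies far below it.

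Lama3 and Col17a1 are keratinocyte genes in skin, and transcripts of keratinocyte genes were measured above background in the sorted samples. Of 15 keratinocyte markers, 12 were above the limit in Ahr-het and 10 in Ahr-ko. Krt14, the keratin of basal cells, was at 9.61, 10.41 and 10.66 in Ahr-het and at 9.45, 10.51 and 10.63 in Ahr-ko. The summed level of the list was 13.32 to 13.35 in Ahr-het and 12.71 to 13.06 in Ahr-ko. This gap came with 1 gene, Dsp, which encodes desmoplakin of cell junctions and fell (difference -1.22, adjusted p = 0.00241 by limma). The other 14 markers summed to 12.48 to 12.73 in Ahr-het and to 12.24 to 12.75 in Ahr-ko. Krt14 was lowest on the array numbered 1 in both groups, whereas Krt1 and Krt10 of the same list were highest on it in both. The markers thus gave no common order of the arrays. Lama3 was lowest on array 1 in Ahr-het and on array 2 in Ahr-ko. The part of keratinocyte RNA in the level of Lama3 was not tested.

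Markers of other cells that deposit matrix were mostly at background. Of 9 fibroblast genes, 1 (Pdgfrb) was above the limit in Ahr-het and 0 in Ahr-ko, with Lum, Prrx1 and Twist2 below it on every array, and the list summed to 9.75 to 9.79 and 9.75 to 9.83. Of 8 endothelial genes, 2 (Esam and Cldn5) were above the limit in both groups. Pecam1 passed it on 1 of 3 Ahr-het arrays, and Cdh5, Kdr, Tek, Tie1 and Emcn were below it on all arrays. This list summed to 10.05 to 10.20 and 10.02 to 10.49. Among 7 genes of pericytes and smooth muscle, 3 (Myh11, Notch3 and Cspg4) were above the limit in both groups. Rgs5, Acta2 and Des were below it on all arrays. Cspg4, a membrane proteoglycan on that list, fell from 11.72, 11.21 and 11.16 to 10.40, 9.33 and 9.69 (difference -1.56, adjusted p = 0.0192 by limma), whereas the other 6 genes summed to 9.90 to 10.02 and 9.93 to 10.06. Melanocyte, Schwann cell and Langerhans cell lists overlapped between the groups in their sums and had 0 genes that passed.

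Of the basement membrane proteoglycans, Agrn and Col15a1 were above the limit in both groups, and Hspg2 (perlecan, difference 0.19) and Col18a1 (0.05) below it on all arrays. Agrn encodes agrin, known for clustering receptors at the nerve-muscle contact. It was at 8.71, 9.18 and 9.01 in Ahr-het and at 8.07, 9.01 and 8.37 in Ahr-ko. The groups overlapped through Ahr-ko 2 (difference -0.48, 95% interval -1.02 to 0.06, adjusted p = 0.448 by limma). Its call depended on the replicate number. With the number as a block the adjusted p was 0.049, and 7.58% of all genes passed. Col15a1, whose product sits at the border of basement membrane and fibrils, was at 9.02, 9.12 and 8.99 in Ahr-het and at 9.22, 9.44 and 9.32 in Ahr-ko. Its groups did not overlap, but it did not pass (difference 0.29, adjusted p = 0.284 by limma).

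The type IV collagens form the net of the basement membrane. Of the 6 chains, Col4a1 (difference -0.17), Col4a2 (-0.19), Col4a4 (-0.12) and Col4a6 (0.01) were above the limit in both groups, Col4a3 (0.32) and Col4a5 (0.15) were below it on all arrays, and 0 passed the test. Col4a1 was at 9.20, 9.30 and 9.11 in Ahr-het and at 9.05, 9.10 and 8.96 in Ahr-ko. The groups stood apart by a margin smaller than the spread within either of them (adjusted p = 0.584 by limma). Col4a1 and Col4a2 lie head to head and their chains join in one trimer. Their intervals, -0.41 to 0.07 and -0.53 to 0.16, did not include a difference of the size measured for Nid2.

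Among the 11 fibrillar chains, Col27a1 alone passed. The chains of skin's main fibrils, Col1a1 (difference 0.14, 95% interval -0.13 to 0.41) and Col1a2 (0.01, -0.28 to 0.30), did not pass, and Col3a1 was below the limit on all arrays (5.67 to 6.10 and 5.76 to 6.12). Col11a1 (-0.30), Col11a2 (0.02) and Col5a3 (-0.14) were above the limit in both groups. Col5a3 was low on Ahr-ko 1 (7.71 against 8.56 and 8.38). Col2a1, Col5a1, Col5a2 and Col24a1 were below the limit everywhere.

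The chains of other families gave 0 calls in either direction. Of 6 type VI chains, which form beaded filaments, Col6a1 (0.03) and Col6a3 (-0.14) were above the limit in both groups, Col6a2 was above it on 2 of 3 arrays in each, and Col6a4, Col6a5 (-0.27) and Col6a6 were below it on all arrays. Of 9 chains that decorate fibrils, Col9a2 (-0.12), Col9a3 (-0.21), Col12a1 (-0.002), Col16a1 (0.23), Col20a1 (-0.03) and Col22a1 (0.04) were above it, and Col9a1, Col14a1 and Col19a1 were below it everywhere. All 4 transmembrane chains were above it, namely Col13a1 (0.01), Col17a1 (0.23), Col23a1 (-0.20) and Col25a1 (0.07), as were Col8a1 (0.09), Col8a2 (0.01), Col10a1 (-0.10), Col26a1 (0.15) and Col28a1 (0.11). Col17a1, the collagen of hemidesmosomes, was at 7.52, 8.32 and 8.32 in Ahr-het and at 8.16, 8.43 and 8.28 in Ahr-ko, lowest on the arrays numbered 1. Col7a1, the anchoring fibril chain, was not analysed here. Over all 43 collagen chains, 28 were above the limit in at least 1 group and the median difference was 0.01.

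Of the other proteins chosen by name, Sparc was the only one that passed. Fbln1, which encodes fibulin-1 of elastic fibres and basement membranes, was at 7.94, 8.17 and 8.13 in Ahr-het and at 7.55, 7.94 and 7.63 in Ahr-ko. The lowest Ahr-het and the highest Ahr-ko value both rounded to 7.94, and the difference of -0.38 did not pass (adjusted p = 0.258 by limma). Fbln2 (0.02), Tnc (0.08) and Vtn (0.07), which encode a further fibulin, tenascin-C and vitronectin, were above the limit in both groups. Fn1, the fibronectin gene, was at 8.17, 6.85 and 6.74 in Ahr-het and at 7.28, 6.64 and 6.45 in Ahr-ko. It was above the limit on Ahr-het 1 alone, and the arrays numbered 1 were the highest of each group. Dcn, the decorin gene, was below the limit on all arrays. Col4a3bp had a difference of 0.46 (adjusted p = 0.271 by limma), with groups that did not overlap.

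**Figure D3:**
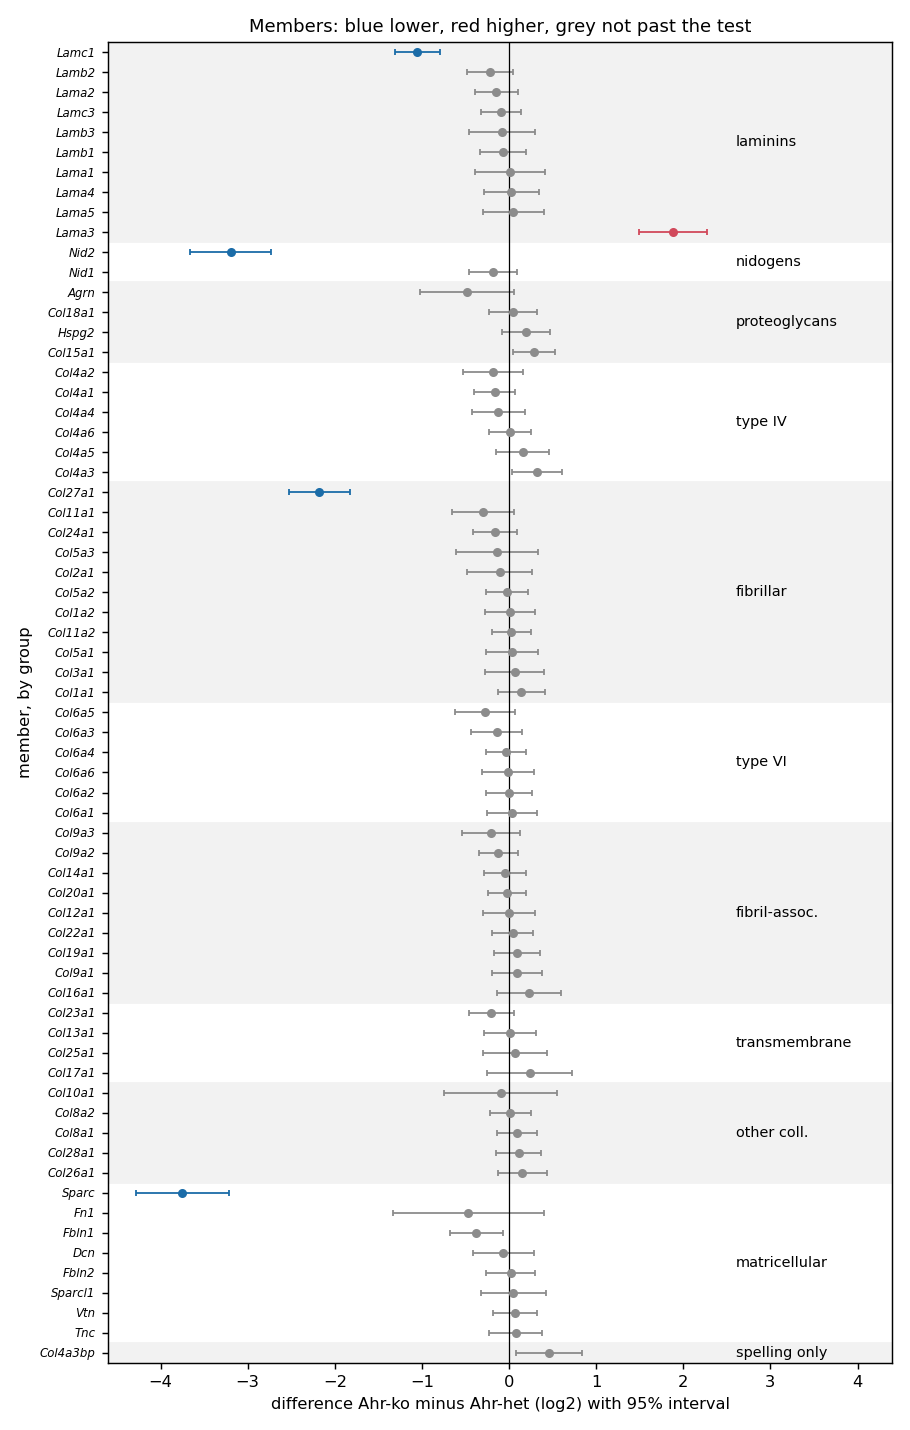
Difference between the groups (Ahr-ko minus Ahr-het, log2, x axis) with its 95% interval from limma for the members reported here (y axis), grouped by role. Blue marks the 4 members that fell, red the 1 that rose and grey those that did not pass. The grey points lie between -0.48 and 0.46, and Nid2, Sparc and Col27a1 lie at -2.18 or below.

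Sparc and Nid2 had the lowest differences of the members, followed by Col27a1 (-2.18) and Lamc1 (-1.05), while Lama3 had the highest (1.88). The 62 members that did not pass had differences of -0.48 to 0.46, of which 54 were under 0.25 in size, and their 95% intervals lay between -1.34 and 0.84. For 60 of the 62 the interval stayed within 1 of no difference. Of these 62, 23 were below the limit on every array and have no measured level. In all, 41 of 67 members were above the limit in at least 1 group (61.2%, against 57.8% of all genes), 37 of them in both, 3 in Ahr-het alone (Sparc, Lamc1 and Col1a2) and 1 in Ahr-ko alone (Lama3). The groups did not overlap for 10 members that were lower (14.9%, against 8.91% of all genes) and for 5 that were higher (7.46%, against 9.76%). Nid2 and Sparc are among the 10, and without them it was 8 of 65. Besides the called genes, the lower ones were Fbln1, Lama2, Col4a1, Col9a2, Col23a1 and Col24a1, and the higher ones Col15a1, Hspg2, Col4a3 and Col4a3bp.

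Whether genes that act on these proteins also differed was asked with 4 lists. Over all genes tested, 1.58% rose and 1.57% fell. In the list of matrix receptors, 3 of 29 genes rose and 0 fell. Itga5, the α chain of the fibronectin receptor, rose from 8.53 to 9.15 on the Ahr-het arrays to 9.64 to 9.79 on the Ahr-ko arrays (difference 0.83, adjusted p = 0.0347 by limma). Itga2, the α chain of a collagen receptor, rose from 7.89, 8.04 and 8.27 to 8.98, 8.64 and 8.70 (0.71, adjusted p = 0.036 by limma). Both were above the limit on all 6 arrays with no overlap. Lair1, an inhibitory receptor for collagen, passed with 0.55 (adjusted p = 0.0334 by limma), but all its values, 5.93 to 6.14 and 6.54 to 6.69, were below the limit. The calls of Itga5, Itga2 and Lair1 were lost in 5, 5 and 6 of the 6 fits that left out 1 array. Itgb1, the β chain that pairs with Itga5 and Itga2, had 0.31 (adjusted p = 0.319), and Dag1 and Cd44, which encode receptors for laminin and hyaluronan, both had -0.14. The laminin receptor gene Itga6 had 0.51 (adjusted p = 0.445 by limma). With replicates paired as a block, Itga6 passed (adjusted p = 0.0201 by limma), but so did 7.58% of all genes. Hmmr (0.48, adjusted p = 0.0385) and Sdc1 (-0.43, 0.0348) of the same list also passed only in that fit.

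Collagen chains are hydroxylated, trimmed and crosslinked before they form fibres. In the list for these steps, 1 of 34 genes rose and 1 fell, against 1.58% and 1.57% of all genes. Adamts2, the protease that removes the N-terminal propeptide of fibrillar collagens, was at 8.27, 8.71 and 8.79 in Ahr-het and at 10.11, 10.02 and 9.91 in Ahr-ko. It rose 2.68-fold (difference 1.42, adjusted p = 0.00144 by limma), with no overlap. P4ha2, a prolyl hydroxylase, was at 8.32, 9.96 and 9.57 in Ahr-het and at 7.19, 7.33 and 7.41 in Ahr-ko. All Ahr-ko values were below the limit, and the gene was at least 3.25-fold lower (adjusted p = 0.0247 by limma), a call lost in 5 of the 6 fits that left out 1 array. Serpinh1, the collagen chaperone, was below the limit on all arrays.

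Among 44 matrix proteases and their inhibitors, 4 rose and 1 fell, against 1.58% and 1.57% of all genes. Timp2, an inhibitor of metalloproteinases, was at 8.33, 7.83 and 8.12 in Ahr-het and at 9.68, 9.08 and 9.50 in Ahr-ko. The groups did not overlap, and Timp2 rose 2.51-fold (difference 1.33, adjusted p = 0.0061 by limma). Reck, a membrane-anchored inhibitor of the same enzymes, was below the limit in Ahr-het (7.03, 6.91 and 6.40) and above it in Ahr-ko (8.38, 8.32 and 8.28), at least 1.74-fold higher (adjusted p = 0.00146 by limma). Mmp15, a membrane-bound metalloproteinase, rose from 8.86, 9.04 and 9.11 to 10.01, 9.93 and 9.83 (0.92, adjusted p = 0.00299 by limma). Proteases and inhibitors were thus both among the genes that rose. Adam8, which sheds surface proteins, had 1.12 (adjusted p = 0.0246 by limma) with all Ahr-ko arrays but 1 of 3 Ahr-het arrays above background. Hpse, the heparanase that cuts the sugar chains of basement membrane proteoglycans, fell from 11.24, 11.13 and 11.11 to 10.42, 9.51 and 10.27 (-1.09, adjusted p = 0.0385 by limma). The calls of Adam8 and Hpse were each lost in 4 of the 6 fits that left out 1 array.

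In the list of 66 other matrix genes, Podn was the only one that passed (1 lower, against 1.57% of all genes). It encodes podocan, a small leucine-rich matrix protein. Its level was 9.41, 9.63 and 9.80 in Ahr-het and 6.75, 6.96 and 6.38 in Ahr-ko. All Ahr-ko arrays were below the limit, which gives at least 4.08-fold lower (adjusted p = 5.44e-05 by limma). Spp1, the osteopontin gene, had 0.81 and did not pass (adjusted p = 0.0895 by limma, or 0.00883 with replicates paired as a block). The median differences of the 4 lists lay between -0.001 and 0.02, against 0.004 over all genes.

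**Figure D4:**
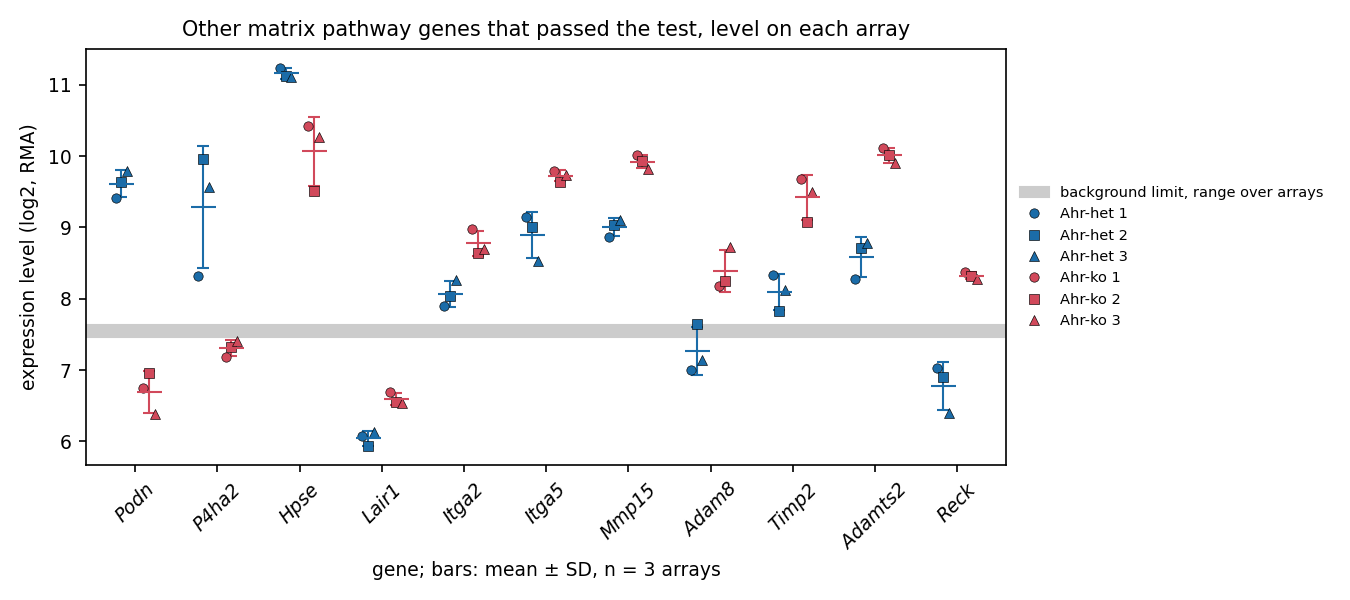
Level of the 11 genes of the 4 pathway lists that passed the test, on each array (log2, y axis), by gene (x axis). Points are single arrays, bars the mean ± SD of 3 arrays, and the grey band the range of the background limit. Podn, P4ha2 and Hpse are lower and the other 8 are higher in Ahr-ko, with Lair1 below the band in both groups and P4ha2 spread from 8.32 to 9.96 in Ahr-het.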

How the data were processed

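Sorted DETC of 2 genotypes were profiled on 6 Clariom S Mouse arrays, 3 each, and grouped by the sample labels. The authors normalized all arrays together by RMA and deposited log2 expression values. The version of RMA is not given in the sources used here, nor is the genome build. A deposited table of the authors' comparison (log2 fold changes and p-values, limma 3.38.3 in the submitters' processing notes) was used for gene IDs and symbols only.

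Of 29129 probe sets, the 8694 that name no gene were dropped. The brightest probe set stood for each of 86 genes with several, which gave 20300 genes. Ahr-ko was compared with Ahr-het in limma 3.58.1 (lmFit, eBayes; R 4.3.3), with Benjamini-Hochberg adjustment over all genes. The test was checked on simulated data. For a gene below the background limit on all arrays of its dimmer group, the fold is at least the mean of the brighter group over the mean limit of the dimmer one.

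Members and lists were chosen with earlier results of these data known. Named are Nid2, Sparc, every member past the threshold or above the limit on all arrays of a group, the 5 largest differences of the rest, and the genes of each list past the threshold. Other names were added for their role with their values known. A member that this rule picks is not reported here, though it stays in the counts. Of the lists, Pdgfra, Egfl7, Cd74, Lck, Itga1, Plod3, Loxl2, Hmcn2 and Ecm1 were not analysed here.

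The genotypes share replicate numbers. Deviations from the group means correlated across genes (0.572, 0.369 and 0.207 for equal numbers), and equal numbers were therefore treated as pairs in a fit with the number as a block. Unequal numbers 2 and 3 also correlated (0.336 and 0.236), and no label explains the numbers. Other alternatives were median centring, a further quantile normalization, a filter on dim genes, all probe sets in the adjustment, array weights, a variance trend, the 99th percentile as limit and leaving out each array.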

Additional observations from a re-analysis of the deposited data

How the results depend on the processing

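The calls and directions of Nid2, Sparc, Col27a1, Lamc1 and Lama3 held in all 6 fits that left out 1 array and in the 7 other fits. Without 1 array the difference was -3.45 to -3.04 for Nid2, -3.94 to -3.46 for Sparc, -2.29 to -2.04 for Col27a1, -1.13 to -0.99 for Lamc1 and 1.75 to 2.02 for Lama3. With the replicate block, Agrn passed (adjusted p = 0.049) and no other member gained or lost its call. Counts over all genes moved more. With the replicate block, 747 genes were higher and 791 lower. With array weights, these were 874 and 842, with Fbln1 (adjusted p = 0.0308) and Col4a3bp (0.0236) added, so that 2 members were higher. Leaving out 1 array gave 164 to 315 higher and 178 to 329 lower genes, and 1 to 2 higher members, the second being Col4a3bp without Ahr-ko replicate 1 (0.0221). The lowest counts came without Ahr-ko replicate 3 (164 and 178), followed by Ahr-het replicate 2 (170 and 185) and Ahr-het replicate 3 (181 and 190).

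In the list of matrix receptors, 5 genes were higher and 1 lower with the replicate block, 0 were higher with all probe sets in the adjustment, and 0 to 1 without 1 array. For collagen synthesis, 3 were higher and 3 lower with the block and with array weights, and 0 lower with all probe sets and 0 to 1 lower without 1 array. For proteases and inhibitors, 3 were lower with the block and with array weights, 0 with all probe sets and 0 to 2 without 1 array. Of other matrix genes, 1 was higher with the block and with array weights, and 3 and 2 were lower. Adjusting over all probe sets tests more features at once, and the cause of the other shifts was not tested. With the 99th percentile as limit, 24 members were above it in at least 1 group in place of 41. The 23 members below the limit on every array have no level here, so a fall in them, or a rise that stayed below the limit, could be missed. The samples are 3 pools per genotype sorted from mice whose DETC share differed, and the purity of each sample is not given.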
